A study of Mus musculus with 24 samples.

Results

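The genes described here are the 10 that encode the DNA-binding subunits of NF-kB (Nfkb1, Nfkb2, Rela, Relb and Rel) and the IkB proteins that bind them (Nfkbia, Nfkbib, Nfkbie, Nfkbiz and Bcl3). They were chosen by symbol, and all 10 were found among the 24411 genes listed for every library. Bulk RNA-seq had been performed in aged male C57BL/6 mice in 2 experiments. In the first, mice received carrier-free recombinant mouse PF4 (platelet factor 4, a chemokine stored in platelet granules, 5 μg/ml, n = 4 libraries) or saline (n = 3 libraries), and microglia were isolated from the hippocampus by dissociation, myelin removal and CD11b beads. In the second, whole hippocampi came from mice aged 20 months that received the platelet fraction of young mice (n = 6), their dialysed blood plasma (n = 6) or saline (n = 5). Donors of plasma and platelets were 3 months old. Treatments in both experiments were 8 intravenous injections of 100 μl over 24 days, and no mouse carried a transgene. The study counts each microglia library, like each hippocampal library, as a separate mouse. The labels give no age in months for the microglia mice. The study's reporting summary puts its aged mice at 20 months, while its legends give other ages for some cohorts.

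NF-kB is a family of dimeric transcription factors that drives inflammatory and survival genes. In resting cells most dimers are held in the cytoplasm by IkB proteins, and IkB kinase frees them by marking the inhibitor for destruction. Several of the inhibitor and subunit genes are themselves targets of NF-kB, so that in microglia and other myeloid cells their transcripts form feedback loops around the pathway.

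Among the subunits, Nfkb1 (chromosome 3, 135584655 to 135691547, minus strand) encodes p105, which is processed to p50, and Nfkb2 (chromosome 19, 46304320 to 46312385, plus strand) encodes p100, which is processed to p52. Rela (chromosome 19, 5637483 to 5648130, plus strand) encodes p65, the main activating subunit of the canonical pathway. Relb (chromosome 7, 19606217 to 19629438, minus strand) encodes the activating partner of p52 in the non-canonical pathway, and Rel (chromosome 11, 23736847 to 23770970, minus strand) encodes c-Rel, best known from lymphocytes and myeloid cells. Among the inhibitors, Nfkbia (chromosome 12, 55489410 to 55492647, minus strand) encodes IkBα, the rapidly resynthesised inhibitor of canonical dimers. Nfkbib (chromosome 7, 28758251 to 28767512, minus strand) encodes IkBβ and Nfkbie (chromosome 17, 45555703 to 45563169, plus strand) encodes IkBε. Nfkbiz (chromosome 16, 55811375 to 55838899, minus strand) and Bcl3 (chromosome 7, 19808462 to 19822770, minus strand) encode the atypical nuclear proteins IkBζ and Bcl-3, which bind p50 or p52 on DNA and can activate as well as repress. Coordinates are those of the GENCODE annotation of GRCm38, the assembly of mm10. Exons of Nfkb2, Nfkbib and Bcl3 overlap genes on the opposite strand (Psd and AC114539.1, Ccer2, and Gm16175), and since the sources disagree on whether the libraries kept strand, reads in those overlaps cannot be assigned with certainty.

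The sequences below are shown because these genes are textbook examples of feedback, in which NF-kB dimers bind the promoters of their own regulators. RefSeq promoter windows of GRCm38.p6, from 250 bases before to 50 bases after a transcript start, were given for 7 of the 10 genes (all but Nfkb1, Relb and Nfkbiz). They were searched on both strands for the κB consensus, a motif of 10 bases. A match lay in the windows of 5 of these 7 genes and in 7 of their 9 windows, against 8.46% of all 32851 promoter windows of the same length. Several of the 9 windows belong to Nfkb2, and some of these overlap and hold the same match, so the windows are not independent. The share of all genes with a match is not given here. No match lay in the windows of Rela or Nfkbib. The matches formed 8 separate stretches, each printed 5′ to 3′ on the strand of the gene with the matching bases in capitals, and overlapping matches are joined. A match is a description of these letters and not evidence of binding.
Nfkbia, chr12:55492657-55492686, minus strand: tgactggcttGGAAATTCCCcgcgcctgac
Rel, chr11:23771041-23771070, minus strand: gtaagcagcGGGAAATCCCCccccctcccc
Nfkb2, chr19:46304689-46304718, plus strand: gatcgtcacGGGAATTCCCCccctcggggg
Nfkb2, chr19:46304716-46304745, plus strand: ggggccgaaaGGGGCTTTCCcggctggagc
Nfkb2, chr19:46305449-46305478, plus strand: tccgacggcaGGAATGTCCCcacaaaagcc
Nfkb2, chr19:46305695-46305724, plus strand: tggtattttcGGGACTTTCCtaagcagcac
Nfkbie, chr17:45555584-45555613, plus strand: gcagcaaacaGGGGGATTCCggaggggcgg
Bcl3, chr7:19822734-19822763, minus strand: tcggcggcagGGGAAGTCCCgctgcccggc

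The match of Nfkbia lay 29 to 20 bases before the transcript start. The 250 bases before that start, chr12:55492648-55492897 on the minus strand, are printed with the match in capitals because Nfkbia was the member whose levels separated the PF4 from the saline microglia.
Nfkbia promoter: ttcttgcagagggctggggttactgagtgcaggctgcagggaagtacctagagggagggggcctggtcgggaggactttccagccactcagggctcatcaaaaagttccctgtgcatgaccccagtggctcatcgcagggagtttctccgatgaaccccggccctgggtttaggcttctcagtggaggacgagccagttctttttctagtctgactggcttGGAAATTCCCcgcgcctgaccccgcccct

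Libraries held 19855188 to 36342162 counted reads in microglia and 6140510 to 10522699 in hippocampus, so that the depth of the whole hippocampus limited the scarcest members. The 10 microglia markers had reads in every microglia library and together took 3.14 to 4.59% of the reads, against 0.0731 to 0.110% in the hippocampi. Choroid plexus transcripts stood out in 3 microglia libraries: the normalized count of Ttr was 501960 in PF4 replicate 2, 345809 in PF4 replicate 4 and 197501 in saline replicate 2, and 641 to 884 in the other 4. Of 9 listed genes of T and B lymphocytes 1 to 3 had reads in each microglia library, summing to 708 to 1568 normalized counts in PF4 and 430 to 888 in saline microglia. Cd79b had reads in every library, and the T-cell genes Cd3e, Cd3d, Cd3g and Cd8a had 0 reads in all of them. In hippocampus, 5 mice were separated from the others along the first principal component (25.1% of the variance), namely 7148 of the platelet fraction, 7147 and 7150 of plasma, and 7146 and 7152 of saline. Choroid plexus markers varied widely there too, summing to 1941 to 60657 normalized counts in platelet fraction, 2345 to 48782 in plasma and 1111 to 34459 in saline hippocampi.

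The inhibitors Nfkbia, Nfkbiz and Nfkbib were the most abundant members in microglia. Per kilobase of exon in reads scaled to the total of the library (RPM per kilobase), Nfkbia stood at 3312 ± 119 in saline microglia (SD, n = 3) and at 34.0 ± 4.19 in saline hippocampus (SD, n = 5). It ranked at place 11 of 13301 genes with a read in saline microglia and at place 2134 of 17212 in saline hippocampus. Nfkbiz followed at 454 ± 66.3 per kilobase in saline microglia, but stood at 1.26 ± 0.302 in saline hippocampus, below Rela, Relb, Nfkb1, Nfkbib and Nfkbie there. Nfkbib came next in microglia at 186 ± 28.4 per kilobase, against 19.9 ± 1.51 in hippocampus. These 3 inhibitors did not overlap each other or any other member between the saline microglia libraries.

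The subunits lay below them on the same per-kilobase scale. In saline microglia Rela averaged 84.6 ± 25.3, Nfkb1 60.2 ± 12.7 and Relb 50.8 ± 12.5 per kilobase, with Nfkbie at 52.2 ± 16.8, and the ranges of these 4 genes overlapped. Rel averaged 18.0 ± 3.54 and Nfkb2 12.5 ± 11.1 per kilobase, and Nfkb2 ranged from 0.0358 to 21.4 because of 1 library described below. Bcl3 was lowest at 5.17 ± 2.61 per kilobase. In saline hippocampus the order was Nfkbia, Nfkbib, Rela, Relb, Nfkbie, Nfkb1, Nfkbiz, Nfkb2, Rel and Bcl3, the last at 0.0404 ± 0.0392. There the ranges of Nfkbie and Nfkb1, of Nfkb1 and Nfkbiz, and of Nfkbiz and Nfkb2 overlapped, and those of the other neighbours in this order did not.

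All 10 genes had higher RPM in saline microglia than in saline hippocampus, where 39.2% of 10687 genes with at least 1 RPM in both had a ratio above 1 and the median ratio was 0.737. The factors differed widely between members. The ratio of the means was 360 for Nfkbiz, 97.4 for Nfkbia and 77.1 for Rel. It was 31.9 for Nfkb1, 23.0 for Nfkbie and 16.4 for Nfkb2, and only 9.36 for Nfkbib, 8.18 for Relb and 7.56 for Rela. For comparison, the 10 microglia markers had ratios of 17.0 to 68.3, with a median of 38.0. Bcl3 had 800 reads in saline microglia and 3 in saline hippocampus, a ratio of summed reads of 141 with an exact 95% interval of 48.0 to 685 that covers counting error only. The 2 kinds of library were processed as separate experiments and only the microglia had been dissociated. The 15 genes listed for dissociation stress took 2.61 to 3.56% of the reads of saline microglia, against 0.0660 to 0.0902% in saline hippocampus. Their own ratios ran from 2.67 to 1686, with a median of 63.5, a range that holds those of Nfkbiz and Nfkbia. The part of dissociation in the ratios of the members was not tested. These ratios are a description with no test, and in bulk samples fewer cells of a type and less RNA per cell cannot be told apart.

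**Figure D1:**
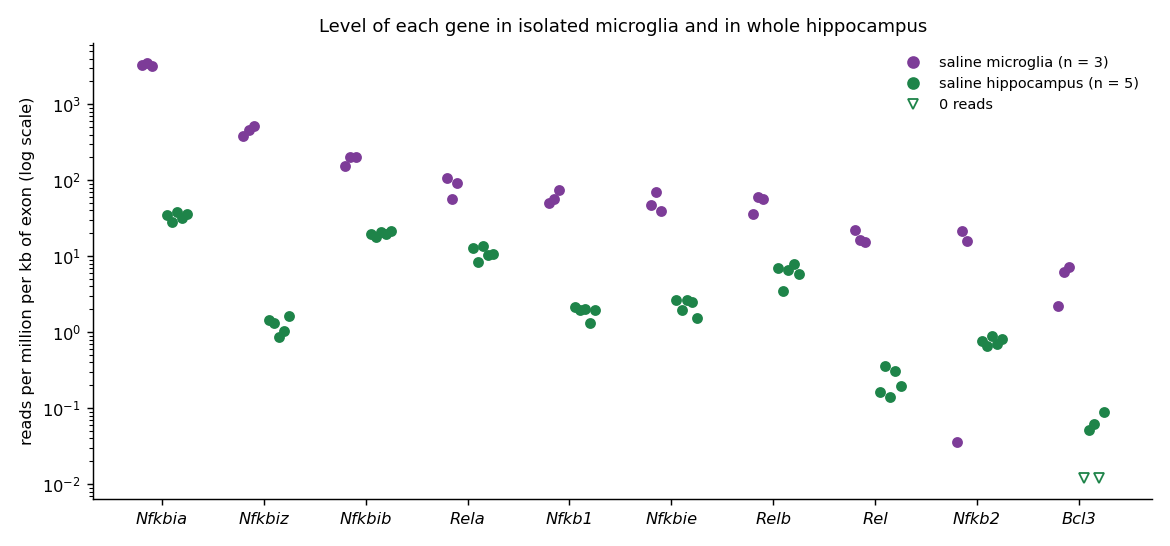
Level of the 10 genes in saline microglia (left of each pair, 3 libraries) and saline hippocampus (right, 5 mice), in RPM per kilobase of exon on a log axis. Open triangles mark libraries with 0 reads, drawn at the bottom edge. Nfkbia was highest in both, at a mean of 3312 in microglia and 34.0 in hippocampus, and 1 microglia library had almost no Nfkb2.

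PF4 was compared with saline in microglia to ask whether the treatment changed the transcriptome of these cells. None of the 10 members passed the unadjusted P of 0.01 that the study set for microglia, where 0.389% of 11320 genes did (44 genes, limma). At an unadjusted P of 0.05 1 member passed, where 3.45% of all genes did. With edgeR 0 members passed the P of 0.01 and 0 that of 0.05, and with DESeq2 1 member, Nfkbia, passed both. The P of 0.01 was met by 0.300% of all genes with edgeR and by 1.58% with DESeq2. The median log2 difference was -0.07 over the 10 members and 0.03 over all genes tested, and the smallest adjusted p over all genes was 0.982 with limma. With DESeq2 41 genes had an adjusted p under 0.05, and none of them was a member.

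The member nearest to the threshold was Nfkbia, the inhibitor that shuts off canonical NF-kB. Its normalized count was 98579, 96279, 120117 and 110859 in PF4 microglia (replicates 1 to 4) and 127033, 141316 and 131988 in saline microglia (replicates 2 to 4). Every PF4 library lay below every saline library, a separation in either direction that was met by 4.62% of all genes tested. Nfkbia averaged 106459 ± 11130 in PF4 microglia and 133446 ± 7252 in saline microglia (SD, n = 4 and 3), a log2 difference of -0.33 ± 0.15 (SE, limma, adjusted p = 0.982) or 0.795 times the saline level. Its 95% interval ran from -0.66 to -0.0034 on the log2 scale. The exact two-sided permutation test gave p = 0.0571 over 35 arrangements, of which the smallest possible p is 0.0286. With DESeq2 on the recovered reads the log2 difference was -0.33 and passed the P of 0.01. The adjusted p over all alternatives ran from 0.463 to 1.00, and leaving out 1 library at a time the log2 difference ran from -0.39 to -0.28 and passed that P in 0 of 7 fits. The study had picked Nfkbia from these same libraries, so that its difference is not independent evidence.

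The inhibitors as a group stood at 6.92 to 9.61 times the summed subunits in PF4 microglia and at 9.04 to 10.8 times in saline microglia, both in normalized counts, and these ranges overlapped. Nfkbia alone made up 57.2 to 59.3% of the counts of all members in PF4 microglia and 58.9 to 64.9% in saline microglia. The genes listed for dissociation stress, 3 of which are also in the pathway lists used further on, had reads for 15 of 15 genes in every library. They summed to 629707, 609977, 736421 and 696611 normalized counts in PF4 microglia and 643605, 924864 and 864801 in saline microglia. Saline replicates 3 and 4 were above all PF4 libraries in this sum and saline replicate 2 was not, and its part in the difference of Nfkbia was not tested. The choroid plexus genes summed to 694 to 531445 in PF4 microglia and 702 to 206424 in saline microglia. Without the 3 libraries high in Ttr the log2 difference of Nfkbia was -0.33 and did not pass.

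**Figure D2:**
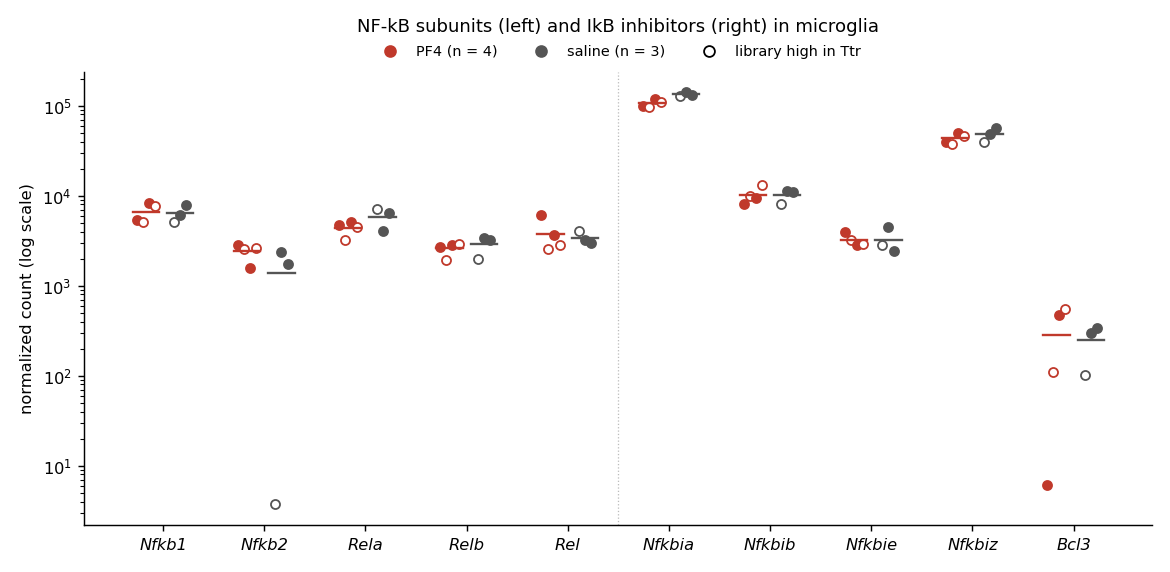
Normalized counts of the 5 subunits and 5 inhibitors in each microglia library on a log axis, PF4 (red, n = 4) left of saline (grey, n = 3), with bars at the mean and open circles for the 3 libraries high in Ttr. Nfkbia ran from 96279 to 120117 in PF4 and from 127033 to 141316 in saline, while Nfkb2 in saline replicate 2 and Bcl3 in PF4 replicate 1 were far below the other libraries.

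The other inhibitors showed no such separation. Nfkbiz was at 39815, 37564, 49919 and 46020 in PF4 microglia and at 39531, 48899 and 55859 in saline microglia (log2 difference -0.15 ± 0.17, SE, exact two-sided permutation p = 0.457). Nfkbib averaged 10150 ± 2086 in PF4 and 10139 ± 1814 in saline microglia, with a 95% interval of the log2 difference from -0.48 to 0.48. Nfkbie averaged 3230 ± 504 in PF4 and 3253 ± 1091 in saline microglia, with an interval from -0.58 to 0.64. These intervals still allow changes of a size like that of Nfkbia. Bcl3 was scarce and uneven, at 6.09, 111, 467 and 555 in PF4 microglia and 101, 297 and 341 in saline microglia, the lowest value resting on 8 reads.

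Among the subunits, Rela had the most negative log2 difference. It was at 4684, 3202, 5067 and 4499 in PF4 microglia and at 7119, 4008 and 6393 in saline microglia, and only saline replicate 3 reached into the PF4 range (log2 difference -0.40 ± 0.27, SE, exact two-sided permutation p = 0.229). Leaving out that library gave -0.65, and leaving out the libraries high in Ttr gave -0.06, neither past the threshold. Nfkb1 averaged 6596 ± 1612 in PF4 and 6352 ± 1473 in saline microglia, a log2 difference of 0.05 ± 0.25. Relb averaged 2591 ± 445 in PF4 and 2879 ± 778 in saline microglia, and Rel 3785 ± 1641 in PF4 and 3408 ± 564 in saline microglia, with Rel highest in PF4 replicate 1 at 6134. The 9 listed markers of monocytes and neutrophils summed to 15818 normalized counts in that library, to 742 to 1732 in the other PF4 microglia and to 3062 to 6265 in saline microglia, and their part in the value of Rel was not tested.

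Nfkb2 had the largest fitted difference, 3.13 ± 1.79 on the log2 scale (SE, exact two-sided permutation p = 0.0857), and it rested on 1 library. Its normalized count was 2831, 2586, 1592 and 2595 in PF4 microglia and 3.72, 2347 and 1748 in saline microglia. The 3.72 of saline replicate 2 stood for 3 reads, whereas the other libraries had 1902 to 3720 reads. Without saline replicate 2 the log2 difference was 0.21. Such gaps were not special to Nfkb2: of 3518 genes with a median of at least 1000 in the other libraries, 48 were under a hundredth of that median in saline replicate 2, and 45 of 3509 were in PF4 replicate 1. The other 5 libraries had 8 to 24 such genes.

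The cytokines Tnf and Il1b, classic targets of NF-kB, did not pass. Tnf was at 27193, 25750, 41535 and 35354 in PF4 microglia and 34630, 38632 and 50449 in saline microglia (log2 difference -0.35 ± 0.21, SE, exact two-sided permutation p = 0.229). Il1b was at 4308, 3328, 4844 and 9281 in PF4 microglia and 4341, 6730 and 6786 in saline microglia (log2 difference -0.21 ± 0.34, SE, exact two-sided permutation p = 0.600). Both overlapped between groups.

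In hippocampus, the comparison with saline asked what the young platelet fraction changed in the aged tissue. Of 9 members that passed the filter (all but Bcl3), 2 rose at the study's unadjusted P of 0.05, where 3.87% of 13603 genes passed in either direction. These were Relb and Rel, and neither passed an adjusted p (0.998 for both, limma). The other 7 did not pass, and the median log2 difference was 0.04 over the 9 members and 0.0021 over all genes.

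Relb was at 100, 135, 151, 140, 137 and 144 normalized counts in the platelet fraction mice (7145, 7148, 7151, 7154, 7157 and 7595) and at 114, 57.0, 112, 129 and 97.2 in the saline mice (7143, 7146, 7152, 7155 and 7596). Of the 6 platelet fraction mice 5 lay above every saline mouse, and 7145 lay within the saline range. Relb averaged 135 ± 17.8 in platelet fraction and 102 ± 27.4 in saline hippocampi (SD, n = 6 and 5), a log2 difference of 0.44 ± 0.19 (SE, limma, adjusted p = 0.998, exact two-sided permutation p = 0.0346). The call rested on single mice. Without saline mouse 7146 the log2 difference was 0.25 and did not pass the limma threshold. Nor did it pass on leaving out 7596 of saline or 7148, 7151, 7154, 7157 or 7595 of the platelet fraction, with log2 differences of 0.40 to 0.44. Without the 5 mice separated along the first principal component the log2 difference was 0.24 and did not pass.

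Rel was at 24.1, 27.7, 19.6, 12.1, 20.8 and 16.9 normalized counts in the same platelet fraction mice and at 8.99, 19.5, 7.98, 16.8 and 10.9 in the saline mice. Of the 6 platelet fraction mice 4 lay above every saline mouse. Rel averaged 20.2 ± 5.46 in platelet fraction and 12.8 ± 5.03 in saline hippocampi (SD, n = 6 and 5), a log2 difference of 0.65 ± 0.29 (SE, limma, adjusted p = 0.998, exact two-sided permutation p = 0.0455). These values stood for 11 to 27 reads in platelet fraction and 9 to 28 reads in saline mice. With edgeR, with DESeq2, without the filter on low values and without the 5 mice separated along the first principal component (log2 differences of 0.64, 0.65, 0.65 and 0.58) Rel did not pass, whereas Relb passed with edgeR (3.87% of all genes) and with DESeq2 (4.13% of all genes). Nor did it pass on leaving out 7143, 7152 or 7596 of saline or 7145, 7148, 7151 or 7157 of the platelet fraction, with log2 differences of 0.51 to 0.65.

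Markers of immune cells, in which Relb and Rel are expressed, are given here, followed by those of other cell types. The 10 microglia markers summed to 5451 to 6908 normalized counts in platelet fraction hippocampi and 6317 to 7889 in saline hippocampi. The 8 markers of border macrophages summed to 69.9 to 225 in platelet fraction and 88.3 to 172 in saline hippocampi. The 9 listed markers of monocytes and neutrophils summed to 17.5 to 75.0 in platelet fraction and 8.17 to 25.7 in saline hippocampi, and the 9 of T and B lymphocytes to 5.23 to 23.1 in platelet fraction and 6.71 to 10.9 in saline hippocampi, with Ms4a1 at 0 in every saline mouse. The 10 oligodendrocyte markers summed to 64755 to 104276 (median 94352) in platelet fraction and 40879 to 80065 (median 61570) in saline hippocampi. Astrocyte markers summed to 47559 to 57429 in platelet fraction and 51334 to 62090 in saline hippocampi. Neuron markers summed to 91784 to 110248 in platelet fraction and 95815 to 135064 in saline hippocampi. The part of any of these cell types in the differences of Relb and Rel was not tested.

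The inhibitors of canonical NF-kB did not pass with the platelet fraction. Nfkbia was at 427, 364, 603, 467, 416 and 414 normalized counts in platelet fraction mice and at 412, 323, 466.4, 362 and 428 in saline mice, and the highest value, 603, belonged to 7151. It averaged 449 ± 82.7 in platelet fraction and 398 ± 56.2 in saline hippocampi, a log2 difference of 0.16 with a 95% interval from -0.12 to 0.45. Nfkbib averaged 302 ± 32.2 in platelet fraction and 314 ± 28.98 in saline hippocampi, an interval of -0.28 to 0.16. For the remaining members the log2 differences lay between -0.03 for Nfkb1 and 0.13 for Rela.

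**Figure D3:**
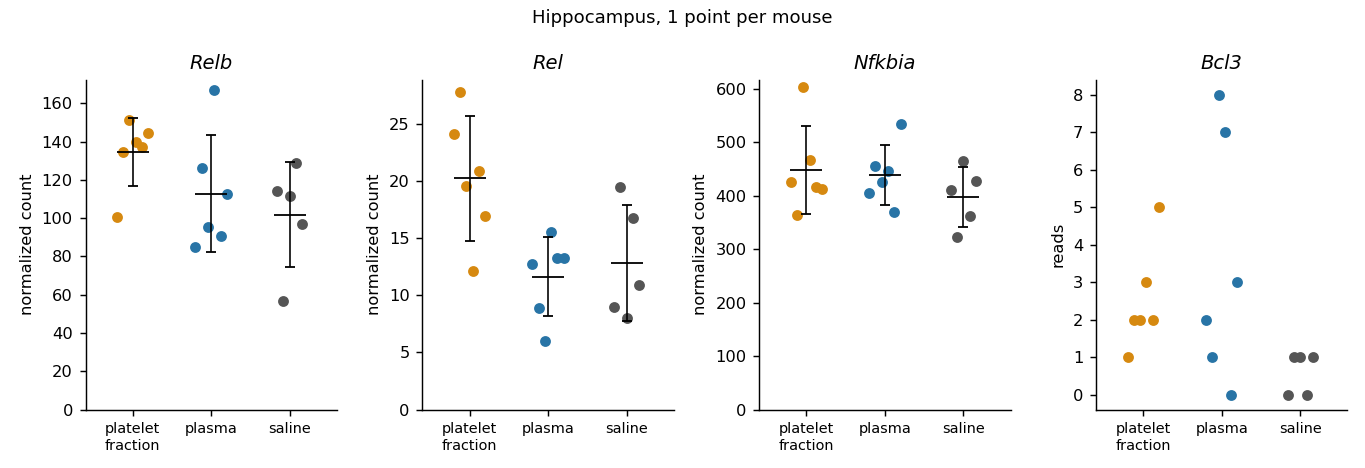
Values of Relb, Rel and Nfkbia (normalized counts, with mean and SD) and of Bcl3 (reads) in each hippocampus, 1 point per mouse, for the platelet fraction (orange, n = 6), plasma (blue, n = 6) and saline (grey, n = 5). Relb averaged 135 in platelet fraction and 102 in saline mice, Rel 20.2 in platelet fraction and 12.8 in saline mice, and Bcl3 never exceeded 8 reads.

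The young platelet fraction was also compared with the young plasma preparation, the other blood product. Of 9 members 1 passed the unadjusted P of 0.05, Rel, where 2.24% of 13932 genes passed in either direction. The 6 platelet fraction mice are those compared with saline above, so the differences of Rel in these comparisons are not independent. Rel was at 12.1 to 27.7 normalized counts (median 20.2) in platelet fraction hippocampi and 6.03 to 15.6 (median 13.0) in plasma hippocampi, and 5 of 6 platelet fraction mice lay above every plasma mouse. The log2 difference was 0.76 ± 0.28 (SE, limma, adjusted p = 1.00, exact two-sided permutation p = 0.0152). Rel passed on leaving out any 1 library of the 2 compared groups (log2 differences of 0.60 to 0.89). The saline libraries, also in this fit, were not left out 1 at a time. Rel also passed with edgeR (2.20% of all genes) and DESeq2 (2.25% of all genes). Without the 5 mice separated along the first principal component its log2 difference was 0.39 and did not pass. The plasma values stood for 6 to 14 reads. Relb did not pass here, at 135 ± 17.8 in platelet fraction and 113 ± 30.4 in plasma hippocampi (log2 difference 0.28 ± 0.19, SE, exact two-sided permutation p = 0.130), except on leaving out plasma mouse 7156, which gave 0.40.

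With young plasma against saline, 0 of 9 members passed the unadjusted P of 0.05 with limma, edgeR or DESeq2, where 3.35% of 13594 genes passed with limma, 3.48% with edgeR and 3.71% with DESeq2 in either direction. The median log2 difference was 0.14 over the members and -0.01 over all genes, with 7 members above 0 and 2 below. Both comparisons with saline share the 5 saline mice, so their values are not independent. Nfkb1 averaged 65.4 ± 9.15 in plasma and 57.4 ± 10.7 in saline hippocampi (log2 difference 0.20, 95% interval -0.16 to 0.56). Nfkbia averaged 437 ± 55.6 in plasma and 396 ± 55.6 in saline hippocampi (0.14, interval -0.11 to 0.40). Nfkbiz had the most negative value, at 16.9 to 61.1 (median 25.8) in plasma and 27.3 to 49.5 (median 40.1) in saline hippocampi (-0.35 ± 0.30, SE, exact two-sided permutation p = 0.294). Leaving out plasma mouse 7147, the highest, gave -0.56, which passed the limma threshold.

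Bcl3 was too scarce in hippocampus for the filter. Its reads were 1, 2, 2, 3, 2 and 5 in the platelet fraction mice, 2, 1, 8, 7, 0 and 3 in the plasma mice, and 0, 1, 1, 0 and 1 in the saline mice. No saline mouse had more than 1 read, and all platelet fraction mice had at least 1. Summed over mice this gave 15 reads with the platelet fraction, 21 with plasma and 3 with saline. The ratio to saline was 4.81 for the platelet fraction (exact 95% interval 1.36 to 25.9) and 6.82 for plasma (2.04 to 35.7), intervals that cover counting error only. The exact two-sided permutation test of the log2 values gave p = 0.00649 for the platelet fraction and p = 0.0693 for plasma. Fitted without the filter, Bcl3 passed the limma threshold with the platelet fraction (adjusted p = 0.902) and with plasma (adjusted p = 1.00). In these fits 781 of 18713 genes passed with the platelet fraction and 679 of 18858 with plasma, in either direction. Tnf and Il1b were as scarce, at up to 3.02 and 4.45 normalized counts in any hippocampus, and give no comparison at this depth.

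**Figure D4:**
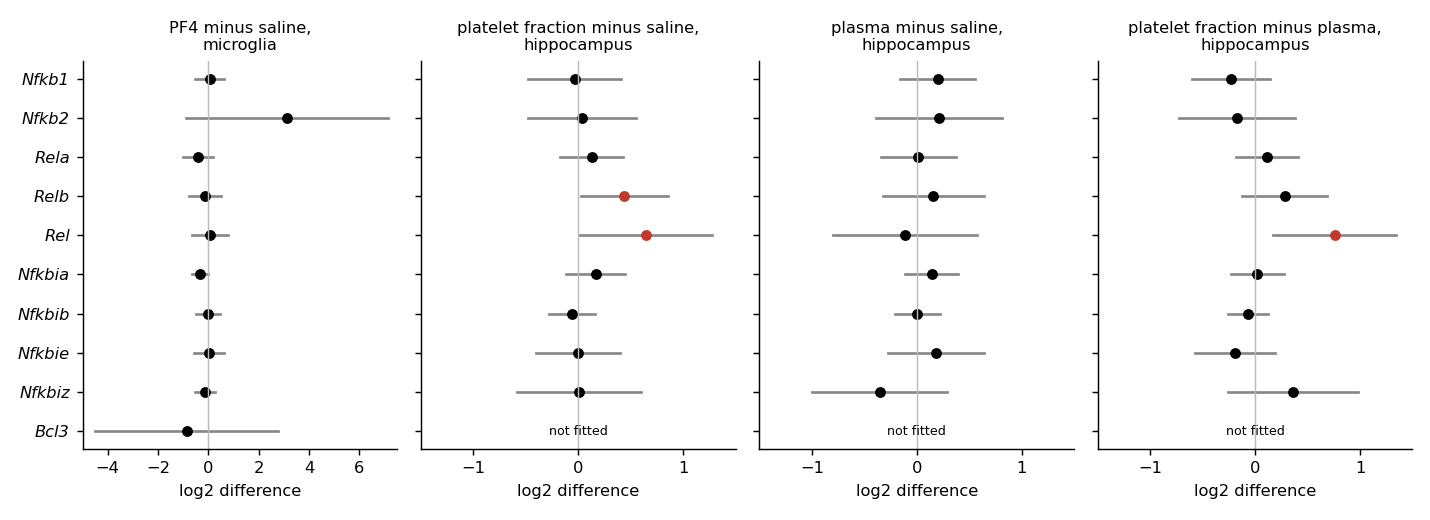
Log2 differences (points) with 95% intervals (lines) from limma for the 10 genes in the 4 comparisons, with a wider axis for microglia. Red points passed the unadjusted P (0.01 in microglia, 0.05 in hippocampus). Relb and Rel passed with the platelet fraction against saline and Rel against plasma, and the intervals of Nfkb2 and Bcl3 in microglia were the widest.

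Genes around the pathway were counted in lists of upstream signalling (36 genes), other brakes on NF-kB (22 genes) and target genes (45 genes). With PF4 in microglia 0 of 35, 0 of 20 and 0 of 42 tested genes of these lists passed the P of 0.01 with limma, edgeR or DESeq2. At a P of 0.05 they held 1, 0 and 2 genes with limma, 1, 0 and 1 with edgeR, and 1, 1 and 2 with DESeq2. Of all 11320 genes 3.45% passed the P of 0.05 with limma, and that share is not given here for edgeR or DESeq2. The smallest P was that of Tnfsf13b, a survival cytokine for B cells that the study had also picked from these libraries. The median log2 difference was -0.10 upstream, 0.18 for the brakes and -0.13 for the targets, beside 0.03 over all genes.

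With the platelet fraction against saline in hippocampus, 4 of 18 tested brakes were higher and 0 lower, where 3.87% of all genes passed in either direction. The list had a median log2 difference of 0.11 beside 0.0021 over all genes, and the same 4 passed with edgeR and DESeq2. Of 33 upstream genes and of 24 targets 0 passed with limma, edgeR or DESeq2. Pdlim2, a nuclear ubiquitin ligase for p65, was at 265 ± 65.4 normalized counts in platelet fraction and 184 ± 31.1 in saline hippocampi (SD, log2 difference 0.51 ± 0.18, SE, limma). Irak3, an inhibitory member of the IRAK kinase family, was at 27.1 ± 6.78 in platelet fraction and 16.8 ± 6.68 in saline hippocampi (log2 difference 0.70 ± 0.26), and leaving out saline mouse 7143 ended its call. Commd1, which promotes the removal of p65 from chromatin, was at 288 ± 37.2 in platelet fraction and 237 ± 12.4 in saline hippocampi (log2 difference 0.27 ± 0.10). The fourth was Nkiras1, which lost its call on leaving out 1 of 6 mice (7154, 7157 or 7595 of the platelet fraction, 7146, 7152 or 7155 of saline). All 4 had adjusted p = 0.998. Without the 5 mice separated along the first principal component 1 of the 18, Commd1, passed, and 1 upstream gene, Ikbkb, was lower.

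Between the blood products, the platelet fraction gave 2 higher calls of 34 upstream genes, 1 of 18 brakes and 1 of 26 targets relative to plasma, with 0 lower, where 2.24% of all genes passed in either direction. With edgeR and DESeq2 1 upstream gene, Ikbkb, which encodes a catalytic subunit of IkB kinase, was called lower as well. Tbk1, a kinase upstream of interferon and NF-kB signalling, was at 539 ± 42.3 in platelet fraction and 461.8 ± 48.3 in plasma hippocampi (SD, log2 difference 0.23 ± 0.08, SE, limma). Traf3, a brake on the non-canonical pathway, was at 299.7 ± 16.9 in platelet fraction and 251 ± 28.4 in plasma hippocampi (log2 difference 0.26 ± 0.09). Nkiras1, which encodes a Ras-like protein that slows the loss of IkB, was at 669.95 ± 46.7 in platelet fraction and 593 ± 59.95 in plasma hippocampi (log2 difference 0.18 ± 0.08). The target was Bcl2a1b, a survival gene of a family whose near-identical copies can share reads, at 11.8 ± 3.03 in platelet fraction and 7.56 ± 4.49 in plasma hippocampi (log2 difference 0.74 ± 0.33), and it did not pass with edgeR or DESeq2. All 4 had adjusted p = 1.00. Nkiras1 lost its call on leaving out 1 of 4 mice (7157 or 7595 of the platelet fraction, 7147 or 7159 of plasma) and Bcl2a1b on leaving out 1 of 6 (7148 or 7595 of the platelet fraction, 7144, 7147, 7159 or 7594 of plasma). Without the 5 mice separated along the first principal component none of these 4 passed, and Ikbkb was lower.

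With plasma against saline 1 of 33 upstream genes passed, where 3.35% of all genes did. This was Tbk1, which fell to 459 ± 48.1 in plasma against 537 ± 36.2 in saline hippocampi (SD, log2 difference -0.23 ± 0.09, SE, limma, adjusted p = 1.00). The call of Tbk1 was lost on leaving out plasma mouse 7147 or 7150 or saline mouse 7152 or 7155. The plasma mice are those of the comparison between the blood products, so the calls of Tbk1 in these comparisons are not independent. Of 18 brakes and 22 targets 0 passed with limma, while with edgeR and DESeq2 1 brake, Pdlim2, and a further upstream gene, Traf1, were higher. Without the 5 mice separated along the first principal component Tbk1 did not pass, and the only call in these lists was Il1r1, an upstream receptor, which was lower.

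The variation of members from mouse to mouse within groups was compared by pairs. After the group mean was taken from each log2 value, the 36 pairs of 9 members had Pearson r from -0.48 to 0.80 over 17 hippocampi, with a median of 0.27, 26 pairs above 0 and 1 pair with an adjusted permutation p under 0.05. The highest was Nfkbia with Nfkbib (r = 0.80, permutation p = 0.00076, adjusted over the 36 pairs 0.0274, Spearman rho = 0.70, permutation p = 0.00491), and r was 0.66 without the 2 mice farthest from the median of Nfkbia. It was followed by Rela with Relb (r = 0.68, permutation p = 0.0109, adjusted 0.134, rho = 0.63, permutation p = 0.0188, r = 0.45 without the 2 farthest) and Rela with Nfkbia (r = 0.60, permutation p = 0.0111, adjusted 0.134, rho = 0.64, permutation p = 0.0121, r = 0.52 without the 2 farthest). Rel had an r below 0 with each of the other 8 members, down to r = -0.48 with Nfkbie (permutation p = 0.0810). Mice of a group share the sequencing experiment. Depth was taken into account only through the size factor of each library, and nothing further was removed from these values. A summary of r over pairs of other genes is not given here.

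**Figure D5:**
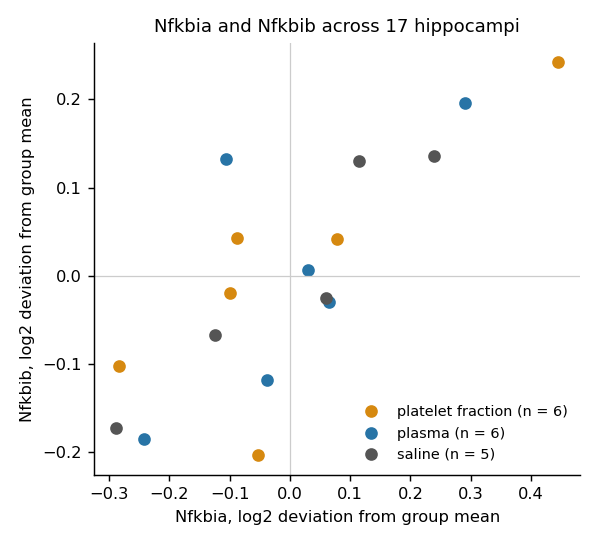
Log2 deviation of Nfkbib (vertical) against that of Nfkbia (horizontal) from the group mean, 1 point for each of 17 hippocampi, coloured by treatment. The points rise together (r = 0.80), and the mouse at the top right is 7151 of the platelet fraction.

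The genes whose within-group pattern over the 17 hippocampi was most like that of Nfkbia, among the 10639 genes with a mean of at least 50, were Nr1d1 (r = 0.82), Por (0.81), Pcdha7-g (0.81), Nfkbib (0.80) and Babam1 (0.78). For Nfkb1 they were Cdk5rap3 (r = 0.86), Gna15 (0.84), Wdr54 (0.83), Bckdha (0.82) and Abhd14a (0.81). These are descriptions chosen as the highest of many and carry no test.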

How the data were processed

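RNA-seq libraries of 7 microglia preparations and 17 hippocampi were grouped by their labels. The library protocol is given as a modification of Smart-Seq2 in the methods and as a strand-specific poly(A) kit in the labels, and which was used is not settled. Per the labels and methods, the authors used STAR with mm10, RSEM and DESeq2. The deposited signal of a library is the count of a gene divided by a size factor, made by the authors in 3 tables of 24411 genes. Their columns of fold changes and p-values were not used. Values were multiples of 1 read, to within 0.01, for 100% of entries, so reads were recovered. They carry no molecular identifiers, and intervals cover counting error only.

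The main model was limma (version 3.58.1, R 4.3.3) on log2 of the normalized count with a pseudocount of 1 and a variance trend, which understates changes of low genes. A gene entered when it reached 10 in 5 libraries (hippocampus) or 3 (microglia). Calls used the study's unadjusted P (0.05 in hippocampus, 0.01 in microglia), beside Benjamini-Hochberg adjusted p over all genes. The P-values measure the spread between libraries. For platelet fraction against plasma all 17 hippocampi were fitted, with the plasma table multiplied by 1.0051 so that the shared saline libraries matched. Alternatives comprised other pseudocounts (0.5, 5), filters (none, 50) and scalings (TMM, totals), and edgeR (4.0.16) or DESeq2 (1.42.0) with the recovered reads. Further alternatives were other groups in the fit, each library of the compared groups left out, and a replicate block. Leaving out libraries high in Ttr (over 100000) or separated along the first principal component was chosen after seeing the data. The fits were also run on simulated counts, and the results of that run are not given here. Permutation p of correlations used 100000 resamples and were added to a planned description.

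The members, lists and tests were chosen with earlier results of these data known. The text names all members, Tnf and Il1b, up to 3 genes of each pathway list with the smallest P past the threshold, and the 5 genes most like Nfkbia and Nfkb1. Tnfsf13b and genes called only under an alternative are named outside this rule, after their values were seen. Coordinates are from GENCODE M21 and sequences from RefSeq. Protein sequences were not used here.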

Additional observations from a re-analysis of the deposited data

Results flagged for a closer look

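Of 37 groups of 4 to 6 libraries checked for the members, 3 held 1 library whose gap to the others was large for the range of its group, where chance gives about 1 in 20. Saline microglia, with 3 libraries, were not checked. Relb was at 1930 normalized counts in PF4 microglia replicate 2, one of the libraries high in Ttr, against 2718 to 2873.9 in the other PF4 microglia. Relb was at 100.4 in platelet fraction mouse 7145, against 135 to 151 in the other platelet fraction mice, and without that mouse the log2 difference from saline was 0.52. Nfkb1 was at 39.1 in saline mouse 7155, against 58.4 to 65.4 in the other saline mice.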

How the results depend on the processing

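The number of members past the threshold changed under several alternatives. With PF4 it was 1 with DESeq2 (Nfkbia), and 0 with each other alternative and each library left out. For plasma against saline it was 1 without the filter (Bcl3), 1 without the libraries separated along the first principal component (Nfkbiz), and 0 to 1 with each library left out. For the platelet fraction against saline it was 1 with a filter at 50, 1 with edgeR and 1 with DESeq2 (Relb each time), 0 without the separated libraries, and 0 to 2 with each library left out. For the platelet fraction against plasma it was 0 with a filter at 50, 0 without the separated libraries, and 1 to 2 with each library of these groups left out. The cause of these changes was not tested, except that the filter at 50 removes Rel.

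Log2 differences that changed sign were not called in the main comparison. With PF4 Bcl3 was at 0.21 with edgeR and 0.21 with DESeq2, Nfkb1 at -0.051 without the libraries high in Ttr, Nfkbib at 0.0017 with TMM, 0.033 with total scaling, 0.0026 with edgeR and 0.0022 with DESeq2, and Nfkbie at -0.0053 with edgeR and -0.0094 with DESeq2. Without the separated libraries, plasma against saline gave Rel 0.19, Rela -0.062 and Relb -0.037, the platelet fraction against saline gave Nfkb1 0.034, Nfkbie 0.034 and Nfkbiz -0.20, and the platelet fraction against plasma gave Nfkb2 0.056. Nfkbiz was at -0.0056 with TMM for the platelet fraction against saline.

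With each library left out in turn, the PF4 differences ran from -1.60 to 0.50 for Bcl3, -0.11 to 0.22 for Nfkb1, -0.16 to 0.094 for Nfkbib, -0.15 to 0.29 for Nfkbie, -0.19 to 0.24 for Rel and -0.38 to 0.012 for Relb. Those of plasma against saline ran from -0.036 to 0.044 for Nfkbib, -0.25 to 0.050 for Rel, -0.090 to 0.11 for Rela and -0.034 to 0.26 for Relb. Those of the platelet fraction against saline ran from -0.16 to 0.086 for Nfkb1, -0.079 to 0.19 for Nfkb2, -0.13 to 0.063 for Nfkbie and -0.10 to 0.20 for Nfkbiz, and Nfkbia against plasma from -0.068 to 0.079.

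Whether microglia libraries of the same replicate number shared a preparation is not stated. The deviations of same-numbered libraries had correlations of 0.14, 0.06 and 0.03, and those of the other pairs ran from -0.20 to 0.20. So few pairs cannot settle this. With the number as a replicate block 0 members passed (29 genes, against 44 without the block), and Bcl3 was at 0.50, Nfkbib at 0.094, Nfkbie at -0.072 and Rel at -0.19. Over all genes 44 passed with PF4, against 179 with DESeq2, 9 without the libraries high in Ttr, and 22 to 123 with each library left out (123 without saline replicate 4). For calls in each direction, the platelet fraction against saline gave 328 higher and 199 lower calls, and 279 and 256 with TMM, and against plasma 152 higher and 160 lower, and 109 and 211 with total scaling. With TMM over all libraries the ratios of microglia to hippocampus were 10.4 to 503. Depth limits Rel (6 to 28 reads) and Bcl3 (0 to 8 reads) in hippocampus.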
